A study of Mus musculus with 12 samples.

Results

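Keratin and keratin-associated genes were examined in the chromatin of the mouse forebrain at embryonic stage E12.5, a tissue that does not build keratin filaments of skin or hair. The members were all promoter windows whose symbol is Krt followed by a number or Krtap followed by a family and a member number. The rule found 107 windows, 54 Krt and 53 Krtap, among 55385 in the deposited tables, with 1 window for each of the 107 symbols. Of these, Krt7, Krt8, Krt18 and Krt19 were taken as the simple epithelial keratins and were set against the other 103 members. The 12 libraries came from untreated C57BL/6 forebrain, either wild type or of the genotype labelled EedcKO. Eed belongs to the core of Polycomb repressive complex 2 (PRC2). CUT&Tag, in which an antibody-tethered transposase cuts nearby DNA, was used for RNA polymerase II (RNA-Pol2), for IgG as the control and for 2 marks on lysine 27 of histone H3, its acetylation (H3K27ac) and its trimethylation (H3K27me3), while X-ChIP was used for Eed with its input. Every genotype and target had 1 library, so differences have no replicate check and p-values are not given. The driver of the deletion, the deleted part of Eed, the sex of the embryos and the number pooled per library are not stated in the labels.

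Keratins are the intermediate filament proteins of epithelial cells and work as obligate pairs of a type I and a type II chain. Krt8 and Krt18 form the first pair of the embryo and of simple, single-layered epithelia, where Krt7 and Krt19 are further partners. Epidermal keratins such as Krt5, Krt14, Krt1 and Krt10 fill the layers of the skin, while the inner root sheath and hair keratins build the hair follicle and shaft. Keratin-associated proteins (Krtap) are small proteins, rich in cysteine or in glycine and tyrosine, that cross-link hair keratins in the shaft. PRC2 methylates lysine 27 of histone H3, and genes of other cell lineages are often held silent by this mark in embryonic tissue, most often at promoters rich in CpG dinucleotides. A gene can also be silent with no H3K27me3 at its promoter, and silence here means only that neither H3K27ac nor RNA-Pol2 stood above IgG, since no RNA was measured.

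The promoters differ in base composition, which the choice of members did not use, and 5 of them are shown from RefSeq (GRCm38.p6, the same build as the mm10 of the files). Each line runs 5′ to 3′ from 250 bases before to 50 bases after the RefSeq start of the transcript. Capitals mark CG dinucleotides and the motif TATAAA on either strand. The first 3 are simple epithelial keratins, Krt72 is the keratin outside that group with the most CG dinucleotides in the table, and Krtap5-2 is the Krtap gene with the lowest H3K27me3 ratio. They lie at chr15:101412153-101412452 on the plus strand (Krt7), chr15:102004293-102004592 on the minus strand (Krt8), chr15:102027966-102028265 on the plus strand (Krt18), chr15:101786471-101786770 on the minus strand (Krt72) and chr7:142175956-142176255 on the minus strand (Krtap5-2).
Krt7: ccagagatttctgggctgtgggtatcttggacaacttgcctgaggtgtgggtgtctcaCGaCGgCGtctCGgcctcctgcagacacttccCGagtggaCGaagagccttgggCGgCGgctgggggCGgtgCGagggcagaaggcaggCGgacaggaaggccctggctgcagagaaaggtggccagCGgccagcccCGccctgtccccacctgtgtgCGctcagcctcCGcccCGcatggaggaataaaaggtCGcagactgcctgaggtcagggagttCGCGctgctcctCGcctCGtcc
Krt8: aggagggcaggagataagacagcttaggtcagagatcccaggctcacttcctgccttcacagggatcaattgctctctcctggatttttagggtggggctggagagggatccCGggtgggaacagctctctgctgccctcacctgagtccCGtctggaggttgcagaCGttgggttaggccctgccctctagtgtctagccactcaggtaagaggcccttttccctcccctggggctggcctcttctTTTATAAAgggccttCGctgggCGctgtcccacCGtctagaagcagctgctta
Krt18: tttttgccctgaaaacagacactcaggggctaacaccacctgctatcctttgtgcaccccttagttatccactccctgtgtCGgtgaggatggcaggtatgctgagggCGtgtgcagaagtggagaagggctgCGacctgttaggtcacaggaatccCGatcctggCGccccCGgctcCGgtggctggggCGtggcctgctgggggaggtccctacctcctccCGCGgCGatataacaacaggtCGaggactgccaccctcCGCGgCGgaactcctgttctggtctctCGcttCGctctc
Krt72: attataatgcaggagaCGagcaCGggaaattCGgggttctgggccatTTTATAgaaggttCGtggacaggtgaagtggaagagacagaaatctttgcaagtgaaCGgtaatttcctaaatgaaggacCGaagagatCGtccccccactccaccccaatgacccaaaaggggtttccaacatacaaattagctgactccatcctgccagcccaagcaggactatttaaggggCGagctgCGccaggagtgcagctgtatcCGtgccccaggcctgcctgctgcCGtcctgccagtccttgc
Krtap5-2: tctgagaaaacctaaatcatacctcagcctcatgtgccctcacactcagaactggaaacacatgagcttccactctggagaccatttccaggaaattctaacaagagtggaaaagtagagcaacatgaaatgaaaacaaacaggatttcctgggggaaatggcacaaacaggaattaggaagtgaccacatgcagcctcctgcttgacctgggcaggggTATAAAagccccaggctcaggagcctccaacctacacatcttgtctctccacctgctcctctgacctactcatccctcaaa

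The Krt7 promoter held 21 CG dinucleotides and that of Krt18 held 17, against 6 in Krt8, 11 in Krt72 and 0 in Krtap5-2. The median of 20932 symbols with a promoter in the table was 11. RefSeq promoters were found for 83 of the 107 members (77.6%), which is too few for a statement over all of them, so that check is void. For the Krtap genes 47 of 53 were found, with a median of 2 CG dinucleotides and a range from 0 to 9. For the inner root sheath keratins 8 of 9 were found, with a median of 6 and a range from 4 to 11. TATAAA was searched on both strands, and 40 of the 47 Krtap promoters (85.1%) held it, against 13.4% of all 20932. It also stood in 7 of the 8 inner root sheath promoters (87.5%). Of the promoters found for the other groups, it stood in 6 of 10 for hair, 4 of 9 for other internal and 1 of 6 for epidermal keratins. On the strand of the gene and between 45 and 15 bases before the start, 31 of 47 Krtap promoters (66.0%) held TATAAA. There 14 of 33 promoters of keratins outside the simple epithelial group (42.4%) held it, and 2.61% of the 20849 symbols that are no members. In Krtap5-2 it began 31 bases before the start. Krt8 also held it, on both strands and, on the strand of the gene, beginning 1 base before the start, and Krt72 held it on the opposite strand.

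Before the results, the labels of 2 libraries have to be set aside as uncertain. Over 55276 symbols, log2 RPKM in the library labelled EedcKO H3K27ac correlated with that of wild type H3K27me3 at r = 0.936 and with wild type H3K27ac at 0.680. The library labelled EedcKO H3K27me3 correlated with wild type H3K27me3 at 0.736, with wild type H3K27ac at 0.867 and with wild type RNA-Pol2 at 0.931. These correlations run across symbols within pairs of libraries and describe them only. Over the 107 members the library labelled EedcKO H3K27ac still correlated best with wild type H3K27me3, at 0.809. Both libraries are therefore called by their labels, and the main results that use one are given with the other in its place. Library totals over all windows ran from 948955 to 3842779 reads, and the members took between 0.0864% and 0.253% of them, with no member at 0 in any library. Of the forebrain markers 8 of 10 had H3K27ac above IgG, among them Sox2 (90 reads against 8). The same held at 2 of 22 epithelial regulators, 2 of 8 mesenchyme and meninges markers and 0 of 7 endothelial markers.

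In wild type forebrain, H3K27me3 covered the promoters of a few keratins of simple epithelia and almost no keratin or Krtap gene of skin or hair. Krt8, which pairs with Krt18, had 452 H3K27me3 reads in its 2 kb window and 29 IgG reads. The windows lie at chr15:102003482-102005481 for Krt8, chr15:102027180-102029179 for Krt18, chr15:101410043-101412042 for Krt7, chr15:101437804-101439803 for Krt87 and chr11:100147665-100149664 for Krt19, each centred on an annotated start site. Krt18 had 199 and 40 reads, and Krt87, listed among the hair keratins and encoded near Krt7, had 210 and 41. Set against the median of all windows, these ratios were 3.77 on the log2 scale for Krt8 (95% counting interval 3.29 to 4.43), 2.20 for Krt87 (1.74 to 2.75) and 2.16 for Krt18 (1.69 to 2.71). A window was counted as above its control when this relative ratio, taken with a pseudocount of 0.5 RPKM, reached 1, a 2-fold difference. By that rule 5 of 107 members (4.67%) were above IgG, against 19.1% of all tested windows. These intervals cover counting error alone, since 1 library shows no spread between samples. They treat every read as an independent molecule. Reads that carry no molecular identifiers need not be that, so the intervals can be too narrow even for counting error. In bulk tissue fewer marked cells and less signal per cell cannot be told apart.

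The other members past the threshold were Krt10, the partner of Krt1 in the upper epidermis, and Krtap4-7. Krt10 had 25 H3K27me3 reads against 6 IgG reads, a relative log2 ratio of 1.80 with an interval from 0.61 to 3.51, and its EedcKO IgG library held 17 reads. Krtap4-7 had 34 against 15 reads, a ratio of 1.05 (0.14 to 2.03). Just below the threshold were Krt77, an epidermal keratin, with 62 against 29 reads and a ratio of 0.97, and Krt7 with 116 against 56 reads and a ratio of 0.92 (0.45 to 1.41). In H3K27me3 reads Krt8, Krt18, Krt87 and Krt7 stood above the remaining members, while Krt10 and Krtap4-7 lay within their range and had few IgG reads in the denominator. Krt19 had 40 H3K27me3 and 39 IgG reads in its window, a ratio of -0.034 with an interval from -0.77 to 0.58.

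**Figure D1:**
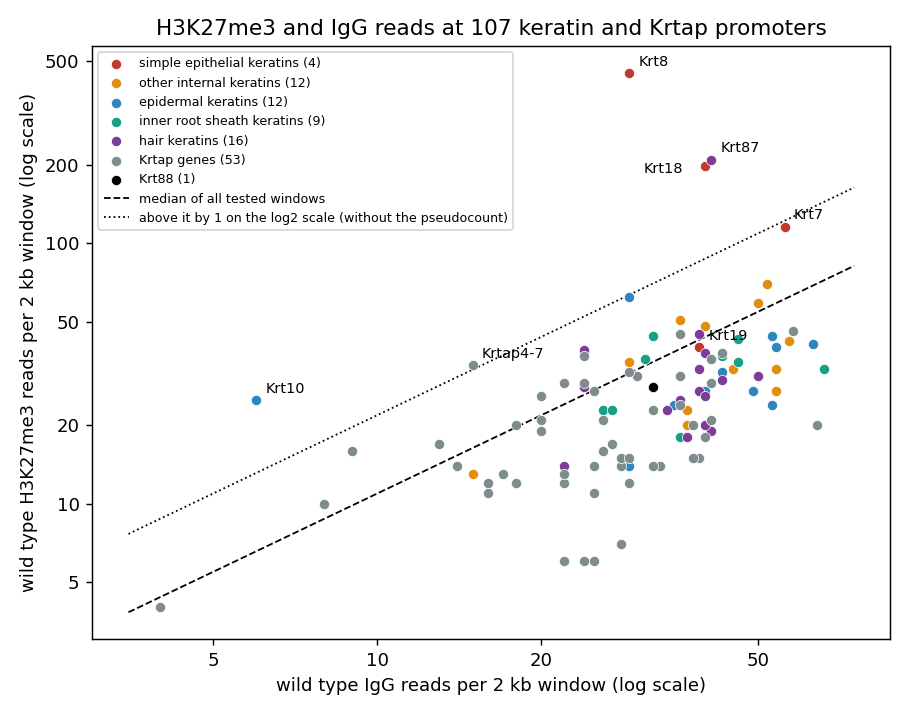
H3K27me3 reads against IgG reads in wild type, 1 point per member window, both axes on log scales, coloured by keratin group. The dashed line is the median of all tested windows and the dotted line lies 1 above it on the log2 scale; Krt8 with 452 reads, Krt87 with 210 and Krt18 with 199 lie above the dotted line, and most Krtap genes lie below the dashed line.

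By role, 2 of the 4 simple epithelial keratins were above IgG, with a median relative log2 ratio of 1.54. The other internal keratins (0 of 12), which include Krt4 and Krt13 of the mouth and oesophagus, had a median of -0.32. The epidermal keratins (1 of 12, Krt10) had a median of -0.52, and Krt5 and Krt14, the pair of the basal layer, had 40 against 54 reads and 27 against 49 reads. The inner root sheath keratins (0 of 9) had a median of -0.25 and the hair keratins (1 of 16, Krt87) one of -0.55. Among the 53 Krtap genes 1 was above IgG and 12 were below it, with a median of -0.48 and a median of 17 H3K27me3 reads. Over all members 16 were below IgG by the same size (15.0%), against 9.82% of all windows. Scaled by library totals alone, without the shift of -1.03 in the median window, 3 were above IgG and 76 below, against 7.62% and 51.5% of all windows. The median IgG count of the members was 32, against 25 over all symbols, while their median H3K27me3 count of 25 was close to the 26 of all symbols; the part of the IgG counts in the negative ratios was not tested.

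Lists of other genes of the same tissues and of other filaments gave counts on both sides of the background. Of 22 epithelial regulators, a list of transcription factors and of adhesion and junction genes of surface epithelia, 20 were above IgG, with a median relative log2 ratio of 4.16. The highest were Cldn7, a tight junction gene, with 830 against 17 reads, and the transcription factor genes Ovol2 (1110 against 24), Tfap2c (1130 against 25) and Tfap2a (1277 against 32). The exceptions were Elf3, with 48 against 48 reads, and Trp63, with 15 against 23. Each gene was read in 1 window of 2 kb around 1 start site, so start sites elsewhere in these genes were not measured. Of 14 hair follicle regulators 12 were above IgG, with a median of 4.40, led by Dlx3 (1130 against 16), Msx2 (1032 against 17), Hoxc13 (1407 against 24), a direct activator of hair keratin genes, and Gata3 (1475 against 31). Of 19 tested genes of the cornified envelope, the protein shell of dead skin cells, 3 were above IgG, namely Cnfn (397 against 40), Tchh (134 against 18) and Lor (177 against 32), and the median was -0.34. Of 15 intermediate filament genes that are no keratins 13 were above IgG, led by the neurofilament and related genes Nefh (930 against 26), Nefl (574 against 17), Prph (840 against 27) and Ina (341 against 29). H3K27me3 was not limited to genes of other tissues. Of 10 forebrain markers, 7 had it together with H3K27ac or RNA-Pol2 above IgG, among them Pax6 (999 against 16 H3K27me3 and IgG reads) and Sox2 (267 against 8). Lhx2 (421 against 30), which is also among the hair follicle regulators, had it without either. These lists were drawn up with earlier results of these data known, and the counts describe them only.

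**Figure D2:**
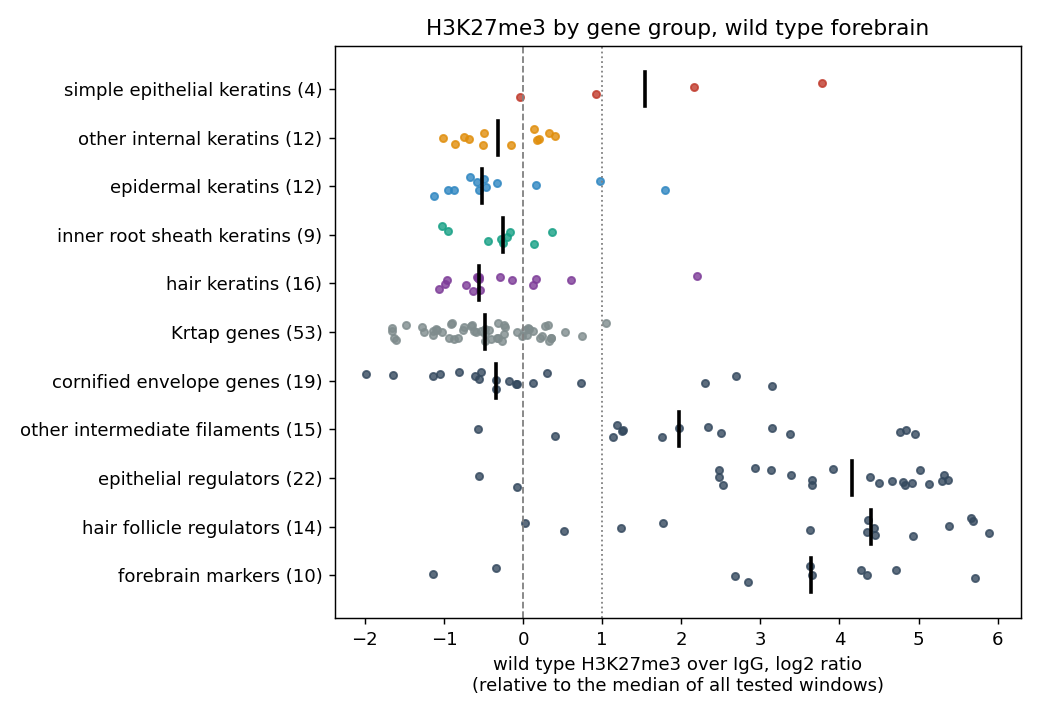
Wild type H3K27me3 over IgG for each member by role and for 5 comparison lists, as log2 ratios relative to the median of all tested windows (dashed line at 0; dotted line at the threshold of 1; black bars are group medians; number of genes in parentheses). The medians of the keratin groups other than simple epithelial keratins lie between -0.55 and -0.25, and those of the epithelial and hair follicle regulators at 4.16 and 4.40.

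For 5 of the 106 members with a RefSeq gene, Krt7, Krt19, Krt10, Krt36 and Krt78, the deposited window did not cover the RefSeq start. That start lay 1360 bp downstream of the window's own start site for Krt7 and 2739 bp downstream for Krt19. It lay upstream, at -8085 bp for Krt10, -3861 bp for Krt36 and -42337 bp for Krt78, so the values of Krt10 above IgG belong to a window away from that start. The window of the neighbouring gene Gm671 was centred 92 bp from the RefSeq start of Krt7. It held 175 H3K27me3 and 52 IgG reads, a relative log2 ratio of 1.61 with an interval from 1.17 to 2.10, and so passed the threshold that the window of Krt7 itself missed. No other deposited window covered the RefSeq start of Krt19. The windows of Gm671 and Krt7 shared 732 bp, and that of Krt8 shared 1730 bp with the window of Gm36026 (484 against 35 reads), so reads in the shared stretches were counted for both symbols.

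The authors' peak summits, whose positions do not depend on these windows, gave a second reading. They come from the same single libraries, and the first count below still uses the windows. A wild type H3K27me3 summit lay inside the window of 1 of 107 members, Krt87 (0.935%), against 6.40% of all symbols. Within 2 kb of the RefSeq start, a distance chosen after seeing the data, 5 of 106 members had one (4.72%), against 10.1% of 38894 symbols. These 5 were Krt7, Krt8, Krt18, Krt19 and Krt87, so that all 4 simple epithelial keratins were among them. The summits lay 127 bp downstream of the start in Krt7, 895 bp downstream in Krt19, 1005 bp downstream in Krt8 and 17 bp upstream in Krt87, and in Krt18 the nearer of 2 lay 1540 bp upstream. Their scores, −log10 values given by the authors, were 13.2 for Krt7, 11.5 for Krt19, 32.1 for Krt8, 24.3 for Krt87 and 13.7 for Krt18. Between the first and last keratin of the chromosome 11 cluster, 1026 kb, the summit at Krt19 was the single H3K27me3 summit of the wild type list. In the 658 kb of the chromosome 15 cluster there were 9, of which 8 lay within 4 kb of Krt7, Krt8, Krt18 or Krt87, and none lay in the Krtap clusters.

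Levels were lower at the neighbouring keratins. Krt8 and Krt18 are 23.7 kb apart, and in wild type the neighbours beyond this pair, Krt78, Krt79 and Krt4, had H3K27me3 levels of 9.33, 11.1 and 8.07 RPKM against 71.5 RPKM at Krt8 and 31.5 RPKM at Krt18. On the other side of the pair Eif4b, a translation initiation factor gene and no keratin, had 6.01 RPKM of H3K27me3 and 2.48 RPKM of IgG (38 against 7 reads), and its relative log2 ratio of 2.16 equalled that of Krt18. Krt7 and Krt87 are 27.8 kb apart, with 18.3 RPKM at Krt7, 27.7 RPKM in the window of Gm671 and 33.2 RPKM at Krt87. The next keratins, Krt88, Krt81 and Krt86, had 4.43, 4.11 and 5.22 RPKM, below their own IgG levels of 11.3, 14.2 and 13.8 RPKM.

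**Figure D3:**
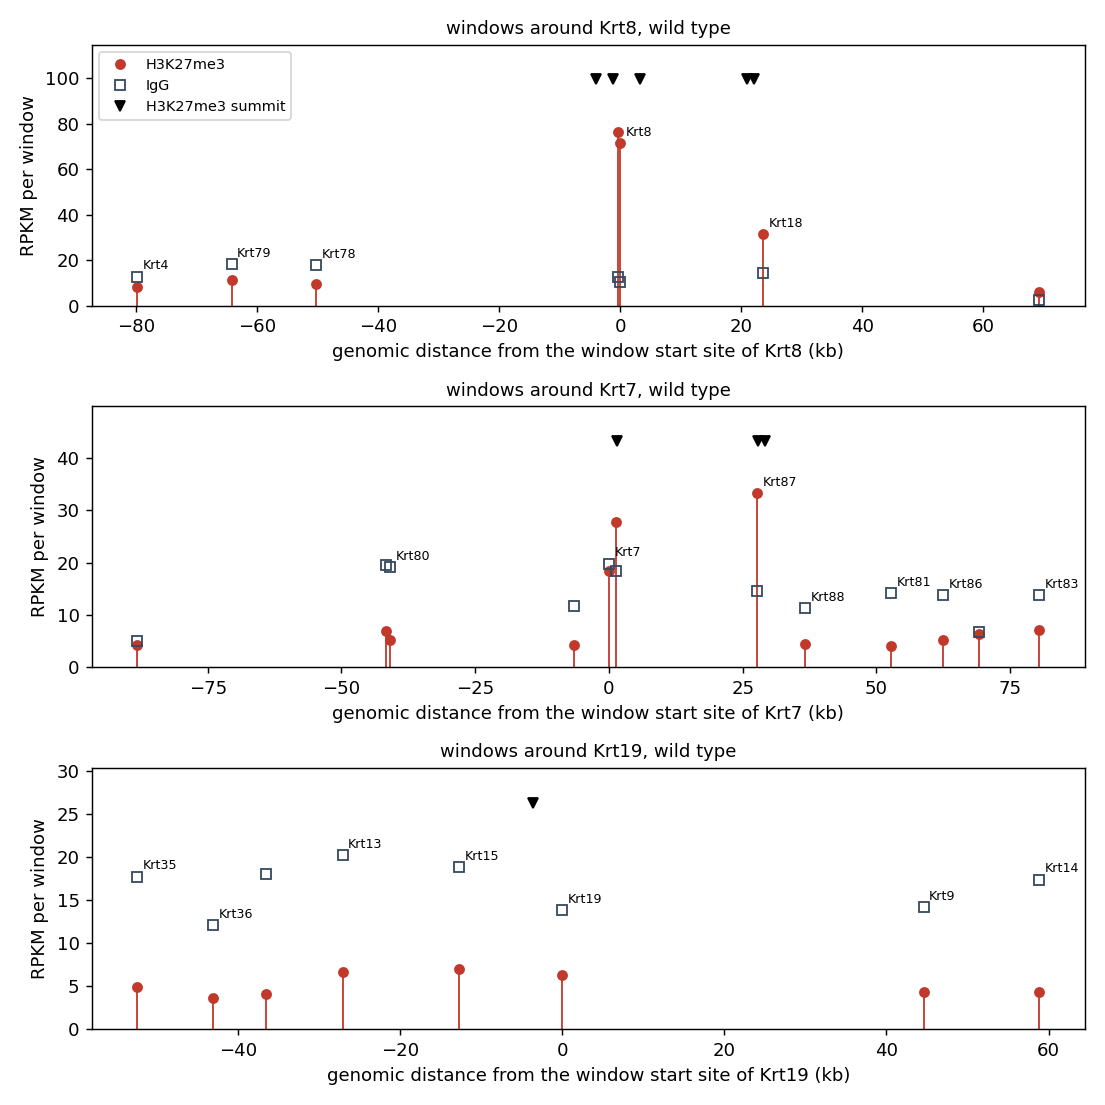
H3K27me3 and IgG levels (RPKM per 2 kb window) in wild type against genomic distance from the window start sites of Krt8, Krt7 and Krt19, with the authors' H3K27me3 summits as triangles. Among the keratins H3K27me3 exceeds IgG at Krt8 (71.5 against 10.3 RPKM), Krt18 and Krt87, and among the other windows at Gm36026 next to Krt8, Gm671 next to Krt7 and, at 6.01 against 2.48 RPKM, Eif4b; the summit near Krt19 lies outside every window shown.

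Active marks were nearly absent from the members in wild type. H3K27ac was above IgG at 2 of 107 (1.87%), against 23.3% of all windows, and below it at 20, against 19.5%. These 2 were Krtap28-10, with 24 against 9 reads and a relative log2 ratio of 1.25 (0.19 to 2.64), and Krt8, with 63 against 29 reads and a ratio of 1.03 (0.40 to 1.74). Krt83, a hair keratin, at 0.86, and Krtap10-4, at 0.74, were the next. Krt7 had 62 H3K27ac against 56 IgG reads, Krt18 22 against 40 and Krt19 26 against 39, so none of these reached the threshold. In RPKM Krt7 lay below its control, at 15.9 against 19.8, and its relative ratio of 0.09 places it near the median window. Among the intermediate filament genes that are no keratins 8 of 15 were above IgG, with 124 against 14 reads at the lamin gene Lmnb1, 146 against 26 at Vim and 82 against 28 at Nes, both genes of neural progenitor filaments.

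RNA-Pol2 was above IgG at 1 of 107 members, Krt10 (34 against 6 reads), against 15.3% of all windows, and below it at 6, against 7.34%. Krtap4-7 (44 against 15) and Krtap16-3 (48 against 18) followed with ratios of 0.90 and 0.78. Krt8 had 56 RNA-Pol2 reads against 29 IgG reads, a relative log2 ratio of 0.35 with an interval from -0.32 to 1.05. Krt7 (81 against 56), Krt18 (62 against 40) and Krt19 (38 against 39) had ratios of -0.06, 0.04 and -0.60. No RNA-Pol2 summit lay in any member window in either genotype, against 4.92% of all symbols in wild type and 19.7% in EedcKO, and none lay within 2 kb of a member's RefSeq start, against 6.85% and 26.9%. The 1 wild type H3K27ac summit in a member window (10.3% of all symbols) was at Krtap10-4, and within 2 kb of the RefSeq start Krt1 had one as well (2 members, against 14.2% of all symbols).

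Taking the 3 targets jointly, 101 of 107 members (94.4%) were silent without H3K27me3, against 67.5% of 50594 symbols. Another 3 were silent with it (2.80%, against 7.41%), namely Krt18, Krt87 and Krtap4-7. Krt8 and Krt10 had H3K27me3 and 1 active mark, and Krtap28-10 had an active mark alone. The H3K27ac ratio of 1.03 at Krt8 lay close to the threshold of 1, and both ratios of Krt10 had 6 IgG reads in the denominator. Of the epithelial regulators 16 of 22 were silent with H3K27me3, and of the cornified envelope genes 16 of 19 were silent without it. With the IgG library of EedcKO as the control, 6 members were silent with H3K27me3, and the share over all symbols under that control is not given. By CG content, 1 of 43 Krtap promoters with 0 to 4 CG dinucleotides was above IgG in H3K27me3 (2.33%), against 6.98% of 5928 other symbols in the same range, and 47.8% of 6743 other symbols with 20 or more. Of all members with a promoter found, 1 of 19 with 5 to 9 was above IgG, namely Krt8 with 6, against 20.3% of other symbols. With 10 to 19 it was 1 of 3, Krt18, against 40.2%, and with 20 or more 0 of 1, Krt7. A part of CG content was not tested.

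In the library labelled EedcKO H3K27me3, the reads at the marked keratins were at or below the level of IgG. Krt8 had 26 reads, against 452 in wild type, Krt87 had 20 against 210, Krt18 had 41 against 199 and Krt7 had 54 against 116. The IgG library of the same genotype held 40 reads at Krt8, 37 at Krt87, 42 at Krt18 and 55 at Krt7. Every one of these 4 promoters had fewer reads in EedcKO than in wild type and fewer than the EedcKO control. EedcKO over wild type, the relative log2 ratio was -3.99 at Krt8 (-4.70 to -3.50), -3.24 at Krt87 (-4.08 to -2.67), -2.19 at Krt18 (-2.75 to -1.73) and -1.04 at Krt7 (-1.54 to -0.57). At Krt19, with 24 against 40 reads, it was -0.69 (-1.48 to 0.08).

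Over all members, 10 of 106 tested were lower in the library labelled EedcKO H3K27me3 (9.43%), against 13% of all windows, and 2 were higher, against 6.81%. The largest decreases after Krt8, Krt87 and Krt18 were at Krtap5-3 (4 against 14 reads) and Krt10 (9 against 25). The 2 increases were at Krtap4-1, with 25 against 6 reads, and at Krt6b, a keratin of the stressed epidermis, with 36 against 14. The median of the 103 members without the simple epithelial keratins was -0.068, and among the epithelial regulators 20 of 22 were lower, with a median of -4.06. Scaled by library totals alone, without the shift of 0.85 in the median window, 38 members were higher and 3 lower, against 41% and 6.45% of all windows. In the library labelled EedcKO H3K27me3, 0 of 106 members were above IgG, against 7.78% of all windows, and 12 were below it, against 6.83%. Its summit list held 671 summits, against 10662 in wild type, with 0 in a member window (against 1.18% of all symbols) and 0 within 2 kb of the RefSeq start of a member (against 1.63%).

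With the library labelled EedcKO H3K27ac read as H3K27me3, the direction turned at Krt8, Krt87, Krt18 and Krt7 and not at Krt19. It held 619 reads at Krt8, 317 at Krt87, 261 at Krt18, 157 at Krt7 and 36 at Krt19. Relative to wild type H3K27me3 this gave log2 ratios of 0.54 at Krt8, 0.68 at Krt87, 0.48 at Krt18, 0.52 at Krt7 and -0.033 at Krt19. As labelled, against wild type H3K27ac, the ratios were 3.40 at Krt8 (3.06 to 3.83), 3.71 at Krt87 (3.21 to 4.45), 3.60 at Krt18 (3.08 to 4.40), 1.46 at Krt7 (1.04 to 1.92) and 0.64 at Krt19 (-0.16 to 1.39). Above its IgG library it had 7 of 107 members (6.54%), against 14.5% of all windows, and these held Krt7, Krt8, Krt18 and Krt87 along with Krtap4-13, Krtap5-4 and Krtap17-1, while 11 were below it (against 6.98%). With library totals as the only scaling, 3 were above IgG and 85 below, against 6.22% and 65.5% of all windows. Its summit list had 1 summit in a member window (0.935%, against 5.92% of all symbols), at Krt87. The 5 members with a summit within 2 kb of the RefSeq start in this library were the same 5 as in the wild type H3K27me3 list (4.72%, against 9.51% of all symbols), with scores of 68.1 at Krt8, 48.2 at Krt19, 40.4 at Krt87, 16.2 at Krt7 and, at Krt18, 9.90. A loss of H3K27me3 at the simple epithelial keratins in EedcKO and its retention therefore cannot be told apart while both labels are in doubt.

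**Figure D4:**
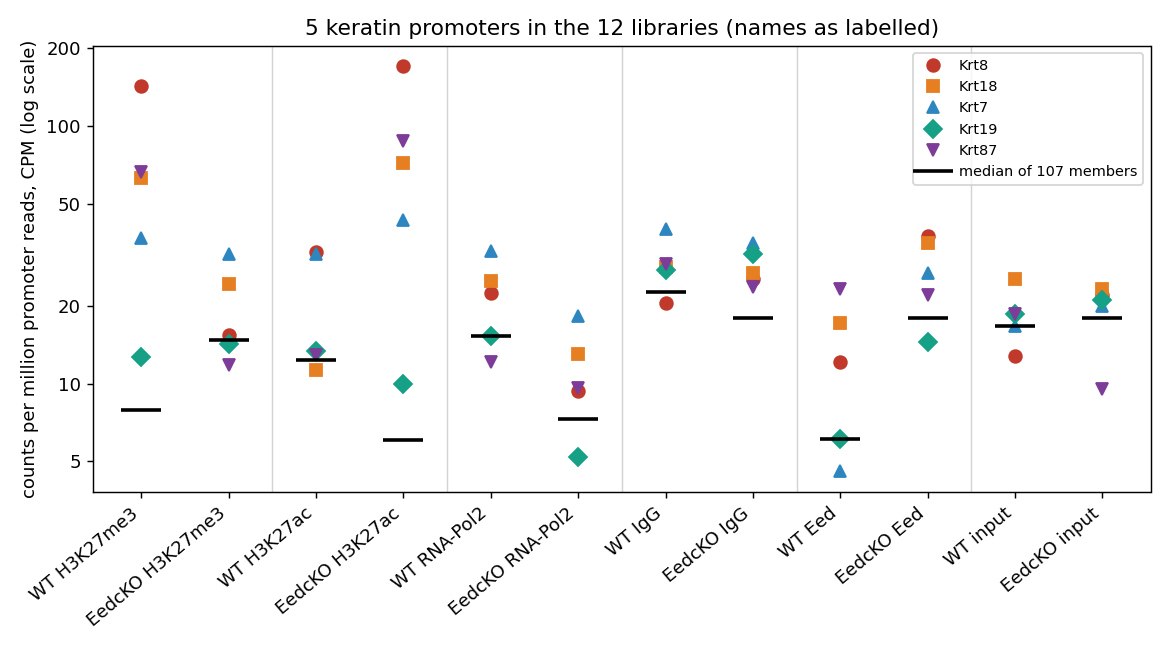
Counts scaled to the library total (CPM, log scale) at Krt7, Krt8, Krt18, Krt19 and Krt87 in each of the 12 libraries, named as labelled, 1 library per genotype and target, with the median of the 107 members as a bar. Krt8 stands at 143 in wild type H3K27me3 and 171 in the library labelled EedcKO H3K27ac, against 15.4 in the library labelled EedcKO H3K27me3 and 32.4 in wild type H3K27ac.

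Over all members, 15 of 105 were higher in the library labelled EedcKO H3K27ac than in wild type H3K27ac (14.3%, against 18.2% of all windows) and 7 were lower (against 11.7%). The lowest were Krt73, an inner root sheath keratin, with 18 against 62 reads, Krt20, a keratin of the gut lining, with 8 against 30, Krtap19-3, Krtap13-1 and Krtap10-10. Krtap4-7, with 16 against 6 reads, was the fifth highest. With the library labelled EedcKO H3K27me3 in its place, the ratios to wild type H3K27ac were -1.14 at Krt8, -0.22 at Krt87, -0.11 at Krt7 and -0.032 at Krt19, while Krt18 stayed higher at 0.92. Without the shift by the median, 3 members were higher and 48 lower, against 7.90% and 51.6% of all windows.

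RNA-Pol2 was higher in EedcKO at no member by the size rule. Of 106 members tested, 0 were higher than in wild type, against 12.2% of all windows, and 21 were lower (19.8%), against 7.86%. The lowest were Krt33a (12 against 42 reads), Krt31 (14 against 41), both hair keratins, and Krtap19-5 (12 against 40), Krtap19-2 (4 against 18) and Krtap21-1 (13 against 39). By role, 12 of 52 Krtap genes, 5 of 16 hair keratins, 2 of 9 inner root sheath keratins and 2 of 12 epidermal keratins were lower, and 0 of 4 simple epithelial keratins. Krt8 had 36 against 56 reads, a relative log2 ratio of -0.77 (-1.50 to -0.23), Krt19 20 against 38, Krt18 50 against 62 and Krt7 70 against 81. Against other genes of the same kind, silent without H3K27me3 in wild type, 20 of 100 members were lower, with a median of -0.43, and 11.0% of 33526 other symbols, with a median of -0.27. Krt10 was the 1 member with RNA-Pol2 above IgG in wild type. Decreases at the other members were therefore between counts that did not stand above IgG. The RNA-Pol2 summit lists held 3716 summits in wild type and 25930 in EedcKO, and the part of this library difference was not tested. The EedcKO IgG library also differed at the members, with a median of 28 reads against 32 in wild type, and its part in the decrease was not tested. Over its own IgG, EedcKO RNA-Pol2 was above at 0 of 106 members, against 23.4% of all windows, and below at 24, against 11.1%; Krt71, an inner root sheath keratin, had the highest ratio, 0.88 (71 against 24 reads). Without the shift by the median, 42 members were lower and 0 higher in EedcKO than in wild type, against 21.1% and 2.42% of all windows.

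Eed was above input at a share of the members close to that of all windows. In wild type, 28 of 107 members (26.2%) were above input by the same rule, relative to the median window, against 28.4% of all windows. By that rule 8 were below it, against 11.6%. The median window itself had a log2 ratio of -1.32, so a member above input by this rule can hold less Eed than input in RPKM. The highest were Krtap28-13 (95 against 17 reads), Krtap28-10 (85 against 18), Krt1 (76 against 17), Krt72 (99 against 24) and Krtap4-16 (62 against 16), with relative log2 ratios from 2.28 to 2.79. These 5 were among the 102 members not above IgG in H3K27me3; Krt72 had 43 H3K27me3 against 46 IgG reads and Krt1 had 32 against 43. Of the 5 members above IgG in H3K27me3, 3 had Eed above input, against 25 of the other 102 (24.5%). Among all other symbols the shares were 68.2% of those above IgG in H3K27me3 and 19.2% of the rest. Krt87 had 46 Eed against 19 input reads, a ratio of 1.63 (0.84 to 2.50), and Krtap4-7 had 33 against 17, a ratio of 1.32 (0.44 to 2.26). Krt8 had 24 Eed against 13 input reads, a ratio of 1.26 (0.22 to 2.35), and Krt18 had 34 against 26, a ratio of 0.78 (-0.03 to 1.55). In RPKM both lay below input, at 6.08 against 6.38 for Krt8 and 8.62 against 12.8 for Krt18. The windows of Krt7 (9 against 17) and Krt19 (12 against 19) showed no excess, whereas the window of Gm671 at the RefSeq start of Krt7 held 77 against 17. By role the counts above input were 10 of 53 Krtap genes, 5 of 16 hair, 5 of 12 epidermal, 3 of 9 inner root sheath and 4 of 12 other internal keratins. Scaled by library totals alone, 4 members were above input and 62 below, against 14.5% and 59.4% of all windows.

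Wild type Eed summits lay in 37 of 107 member windows (34.6%), against 29.1% of all symbols, and within 2 kb of the RefSeq start of 40 of 106 members (37.7%), against 40%. All 4 simple epithelial keratins had one within 2 kb of the RefSeq start, 113 bp downstream in Krt18, 172 bp in Krt7, 260 bp in Krt8 and 554 bp in Krt19, and Krt87 had one 114 bp downstream. Of the 39 summits inside member windows 36 (92.3%) lay downstream of the start site, at a median of 261 bp, and 35 lay between 0 and 500 bp. Among all other symbols 68.5% of 17471 summits lay downstream, at a median of 146 bp, and 53.8% lay between 0 and 500 bp. Among other symbols that were silent without H3K27me3, 62.6% of 4212 summits lay downstream, at a median of 81.5 bp, and 50.1% lay between 0 and 500 bp. The highest scores, 74.5 at Krtap28-10, 69.6 at Krt1 and 65.2 at Krt72, stood at members not above IgG in H3K27me3, as 102 of the 107 are. Of the 5 members above IgG in H3K27me3, 4 held an Eed summit in the window, Krt8, Krt18, Krt87 and Krtap4-7, against 33 of the other 102 (32.4%). For all other symbols these shares were 73.5% of those above IgG in H3K27me3 and 19.6% of the rest.

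**Figure D5:**
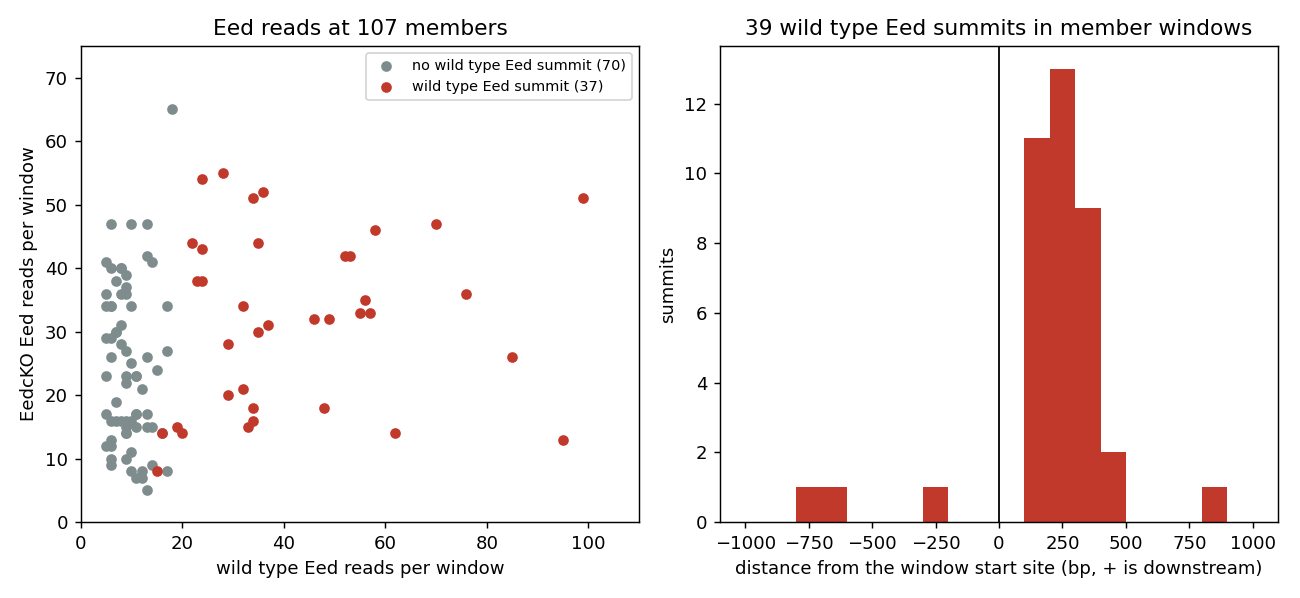
Left, Eed reads per window in wild type and EedcKO for the 107 members, coloured by whether the wild type list has an Eed summit in the window. Right, distance of the 39 wild type Eed summits in member windows from the window start site; 36 lie downstream, with a median of 261 bp.

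In EedcKO the Eed reads were spread more evenly over the members. The 37 members with a wild type summit had a median of 35 Eed reads in wild type and 33 in EedcKO, and the 70 without one had 9 and 23. This split uses the wild type Eed library itself, so these differences carry no test. EedcKO over wild type, 27 members were higher (25.2%, against 22.6% of all windows) and 21 lower (19.6%, against 30%). The largest decreases were at Krtap28-13 (13 against 95 reads), Krtap4-16 (14 against 62), Krtap28-10 (26 against 85), Krt27 of the inner root sheath (18 against 48) and Krtap4-13 (5 against 13). The largest increases were at Krtap12-1 (41 against 5), the hair keratin Krt35 (47 against 6), Krtap11-1 (36 against 5), Krt78 (40 against 6) and Krtap29-1 (34 against 5). Their wild type input counts were 13, 17, 22, 21 and 22 in the same order. Over input in EedcKO, Krt78 had a relative log2 ratio of 1.47. The ratios were 0.66 at Krtap12-1, 0.85 at Krt35, 0.06 at Krtap11-1 and 0.11 at Krtap29-1, none of which reached the threshold. Krt7 had 39 Eed reads in its own window against 9 in wild type, a relative log2 ratio of 1.45 (0.61 to 2.91). Krt8 had 54 against 24 (0.66), Krt19 21 against 12 (0.25) and Krt18 51 against 34 (0.11). Above input in EedcKO were 3 members, against 5.16% of all windows, namely Krt78 (40 against 9 reads), Krt17 (65 against 17) and Krt87 (32 against 9), and 11 were below it, against 18%. EedcKO Eed summits lay in 6 member windows (5.61%), against 9.41% of all symbols, and within 2 kb of the RefSeq start of 11 members, against 15.6%. With library totals as the only scaling, 55 members were higher and 3 lower in EedcKO, against 47.2% and 14.7% of all windows. The window of the Eed gene (chr7:89979983-89981982) held 121 Eed reads in wild type and 40 in EedcKO, which checks binding at that promoter and not the deletion.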

How the data were processed

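Per the submitters' processing notes, the build was mm10 and the tools were ChIPseeker 1.22.1, deepTools 3.4.0, MACS2 2.2.7.1 and Bowtie2 2.4.1; duplicate and mapping quality filters are not stated there. In the promoter tables the authors deposited whole read counts per window of 2 kb around a start site, although the tables are named for RPKM. RPKM was computed from them with each library's total promoter count. The authors' summit lists, deposited per library, carry a −log10 score, from either p-values or q-values. Each of 55276 symbols was represented by its window of highest mean RPKM in the 8 antibody libraries. Log2 ratios carry a pseudocount of 0.5 RPKM, need a mean of 1 RPKM over both libraries and are relative to the median of all tested windows; low windows are understated. Intervals are exact 95% Clopper-Pearson intervals of both counts. Library totals from 948955 to 3842779 set this precision.

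Symbols in 27 rows of 1 table had turned into dates and were taken by Ensembl identifier. Named are Krt7, Krt8, Krt18 and Krt19 throughout, up to 12 members for wild type H3K27me3, 5 per other target and direction, and up to 4 genes of each comparison list, chosen by ratio among those whose interval excludes 0. The members and lists were chosen with earlier results of these data known. The ratio and interval steps were tested on simulated counts. Python 3.11.15, numpy 2.4.6, pandas 2.3.3 and scipy 1.17.1 were used.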

Additional observations from a re-analysis of the deposited data

How the results depend on the processing

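No paired analysis was possible because each genotype and target had 1 library, which also leaves no replicate to leave out. Of 51 counts and medians under the alternatives, 321 values stayed within 1.5 times the count or within the interval of the median and 78 moved; of 99 ratios of named genes 687 values stayed within the counting interval, 50 moved without a change of sign at a called value and 16 reversed. Krt8, Krt87 and Krt18 stayed above IgG in wild type H3K27me3 under every alternative that kept their windows. Except for scaling by library totals, the alternatives were counted for the members and lists only. Shares over all windows at those settings are not given, so these ratio counts cannot be set against a background.

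Scaling by library totals alone moved most values, by construction, since the shift of the median window is left in. Over IgG, members higher and lower became 3 and 76 in wild type H3K27me3 (median -1.48), 0 and 38 in wild type H3K27ac (-0.73; 15.9% and 29.9% of all windows), and 3 and 85 in the library labelled EedcKO H3K27ac (-1.56). Members lower became 16 for wild type RNA-Pol2 (-0.53; 13% of all windows) and 72 for EedcKO RNA-Pol2 (-1.27; 35%), the median for the library labelled EedcKO H3K27me3 became -0.50, and 7 other intermediate filament genes stayed above IgG in wild type H3K27me3. Over input, wild type Eed had 4 higher and 62 lower (-1.17), and Krt8 reversed to -0.064; Krtap5-4 reversed to -0.23 in the library labelled EedcKO H3K27ac. EedcKO over wild type, higher and lower became 38 and 3 for H3K27me3 (0.77), 3 and 48 for H3K27ac (-0.92) and 55 and 3 for Eed (1.03), and 42 were lower for RNA-Pol2 (-0.86).

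With the 2 EedcKO histone libraries exchanged, the H3K27me3 role had 7 members above IgG, and EedcKO over wild type 6 lower, with Krt8, Krt87, Krt18, Krt7 and Krtap5-3 reversed to 0.54, 0.68, 0.48, 0.52 and 0.49. The H3K27ac role had 0 members above IgG (median -0.40), with Krt8, Krt87, Krt18, Krt7 and Krtap5-4 reversed to -0.59, -0.84, -0.035, -0.028 and -0.48. Over wild type H3K27ac 9 were higher and 4 lower, with Krt8, Krt87, Krt7 and Krtap19-3 reversed to -1.14, -0.22, -0.11 and 0.45.

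With a threshold of 1.5, EedcKO over wild type gave 1 higher and 4 lower for H3K27me3, 3 and 0 for H3K27ac, 13 and 6 for Eed, and 5 lower for RNA-Pol2. Wild type members lower were 4 for H3K27me3, 5 for H3K27ac, 0 for RNA-Pol2 and 0 for Eed, with 17 higher for Eed and 0 for H3K27ac. In EedcKO the lower counts were 1 for the library labelled H3K27me3, 6 for that labelled H3K27ac, 8 for RNA-Pol2 and 3 for Eed, with 0 higher for Eed. A pseudocount of 0.1 gave 6 members higher in H3K27me3 between genotypes. A pseudocount of 1 gave 9 higher and 4 lower in H3K27ac between genotypes, 7 below IgG in the library labelled EedcKO H3K27ac, 5 below input for wild type Eed and 1 above IgG for wild type H3K27ac. That last count was also 1 with no low filter, with at least 20 reads and without overlapping windows. At least 20 reads gave 4 lower in H3K27ac between genotypes, and leaving out overlapping windows left 1 simple epithelial keratin, Krt18, above IgG, because Krt8 was removed.

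With the other genotype's control, 6 members were silent with H3K27me3, 2 were above IgG for wild type RNA-Pol2 and 5 above input for EedcKO Eed, and the wild type H3K27ac median was -0.20. Within 5 kb of the window start, 5 members had a wild type H3K27me3 summit, 5 one of the library labelled EedcKO H3K27ac, 2 one of wild type H3K27ac and 17 one of EedcKO Eed. Within 2 kb of the RefSeq start, chosen after seeing the data, these were 5, 5, 2 and 11. With scores of at least 10, 0 had a wild type H3K27ac summit and 0 an EedcKO Eed summit. The causes of these moves were not tested. CG content in the 2 kb windows was not run, as no genome was given. Counts of 20 to 40 reads per window limit single members, and at that depth a 2-fold difference is near the edge of the counting intervals.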
